A study of Nannospalax ehrenbergi and Mus musculus with 25 samples.

Results

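A set of 10 genes of oxygen binding, heme and iron handling were followed through RNA-Seq of neck muscle and tumor tissue of the blind mole rat Spalax, a burrowing rodent that lives in air poor in oxygen, and of the house mouse. They are the globins Mb, Cygb and Ngb, the heme synthesis enzymes Alas1 and Alas2, the heme-degrading enzyme Hmox1, the iron importer Tfrc, the ferritin subunit Fth1, the iron exporter Slc40a1 and the iron oxidase Cp. The genes were chosen by name from measured values of these same libraries: Alas2 and Cp for a difference between untreated Spalax muscle and the uninjected muscle of tumor-bearing Spalax, and Mb for its difference between Spalax fibrosarcoma and muscle. Those comparisons, and the others that reuse the libraries whose levels chose a gene (Alas2 and Cp wherever Spalax control or UIS muscle is compared, and Mb where the fibrosarcoma change is), are given for that gene as a description with no test. Of the 10 genes, 9 were read from the Spalax table of 27988 genes and all 10 from the mouse table of 47593 genes. Fth1 was not analysed here in Spalax.

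Heme is built in mitochondria from glycine and succinyl-CoA, and 5-aminolevulinate synthase catalyses its first step: Alas1 is the form found in most cells and Alas2 the form of developing red blood cells. Myoglobin (Mb) stores oxygen in muscle fibers, and heme oxygenase 1 (Hmox1) opens spent heme to biliverdin, carbon monoxide and iron. Iron enters cells on transferrin through its receptor Tfrc, is kept in ferritin, and leaves through ferroportin (Slc40a1), after which multicopper oxidases such as ceruloplasmin (Cp) load it onto transferrin.

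The 25 libraries comprised 16 of Spalax and 9 of mouse. The Spalax were wild-caught. Untreated Spalax, for which no age estimate is given, gave 4 control libraries (animals 1042, 1075, 2095 and 6038). Treated Spalax, estimated to be between 2 and over 10 years old, had received 1 mg of the carcinogen 3-methylcholanthrene (3MCA) once under the skin of the left flank of the neck. Of these, 4 tolerant animals (2218, 2251, 2261 and 2375) had no tumor 18 or 30 months later, 2 had a granuloma (600 and 976, at 14 and 16 months), a benign spindle cell growth, and 2 had a malignant fibrosarcoma (2240 and 2230, at 18 and 30 months). Each tumor-bearing animal gave a library of the injected side (IS), which is the tumor, and a library of the uninjected side (UIS), which is neck muscle. The mice were C57BL/6 males of 3 to 4 months: 3 untreated (M1, M2 and M5) and 3 (1019, 1023 and 512) that grew fibrosarcomas 11 to 14 weeks after 200 µg of 3MCA and gave UIS and IS libraries.

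Several features of the design moved with the groups. All libraries of tumor-bearing animals, in both species, carried a single index, and control and tolerant libraries carried dual indexes, so index and group cannot be told apart between them. The Spalax controls were female, 3 of the 4 tolerant animals (2218, 2251 and 2261) were male, and the tumor-bearing animals were female apart from 2230. Tolerant muscle came from the injected side, whereas control and UIS muscle came from the uninjected side. Control Spalax were biopsied under anesthesia and recovered, whereas tumor-bearing animals and control mice were sampled at death. In the labels of the library granuloma UIS 976 the file name carries another animal number, and several changes from control to UIS are also given without it.

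Several libraries stood apart in their cell type markers. The summed level of 9 muscle fiber genes in Spalax was 1606000 to 2486500 normalised counts in control, 920880 to 2813900 in tolerant, 1568000 to 2641200 in UIS and 498 to 7394 in IS libraries, so the muscle label fitted all samples outside the tumors. Tolerant 2251 had the lowest muscle sum of its group and the highest sums of 8 fibroblast genes (202550, against 8270 to 47071 in the other tolerant libraries) and of 10 macrophage genes (30519, against 1926 to 8528). In mouse the IS libraries 1023 and 512 held muscle fiber genes at 19847 and 81189, against 352 in IS 1019. Mouse UIS 512 had the highest hemoglobin sum (85685, against 6084 and 31440 in the other UIS libraries) and the lowest sum of slow fiber genes (5320, against 67628 and 93539), with the highest muscle fiber sum (2896100, against 1408200 and 2158900). In these bulk samples fewer cells of a type and less RNA per cell cannot be told apart.

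Part of iron handling is controlled through the iron-responsive element, a short RNA hairpin with the loop CAGTGN bound by the iron regulatory proteins when iron is scarce. In a 5′ untranslated region (UTR) it blocks translation and in a 3′ UTR it stabilises the transcript. The hairpin was searched for on the sense strand of the UTRs of all protein-coding mouse genes (GRCm38, GENCODE vM21) as an unpaired C, then 5 bases, the loop CAGTGN with N = A, C or T, and 5 bases that pair with the first 5, with G and T allowed to pair. It was found in 123 of 21901 genes, or 0.562%, and in 4 of the 10 genes described here, at 7 sites. The sites are shown because they divide the group into genes that carry the element ahead of the coding sequence (Alas2, Fth1 and Slc40a1) and after it (Tfrc). Each sequence is given 5′ to 3′ with the 6 loop bases in capitals. The sites lie in the 5′ UTR of Alas2 at chrX:150547460-150547484 (+ strand), of Fth1 at chr19:9982734-9982758 (+) and of Slc40a1 at chr1:45925467-45925491 (− strand), and in the 3′ UTR of Tfrc on the + strand at chr16:32631221-32631245, chr16:32631600-32631624, chr16:32631665-32631689 and chr16:32631712-32631736.
Alas2: ggttcgtcctCAGTGCagggcaaca
Fth1: cctgcttcaaCAGTGCttgaacgga
Slc40a1: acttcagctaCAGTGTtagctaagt
Tfrc site 1: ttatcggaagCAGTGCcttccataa
Tfrc site 2: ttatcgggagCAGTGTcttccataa
Tfrc site 3: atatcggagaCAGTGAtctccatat
Tfrc site 4: ttatcgggaaCAGTGTttcccataa
A match is a description of the letters. It does not show that the site was used in these tissues, and the measurements below are transcript levels, not translation.

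Values are normalised counts, the read count of a gene divided by 1 size factor per library, and 1 read was worth between 0.517 and 1.44. A change is a difference of group means of log2(value + 1), with its standard error (SE) from limma, and was called at an adjusted p of at most 0.05 over all genes tested. Tumors differed from muscle in many genes: 24.3% of 14735 genes were called between granuloma UIS and IS (11.7% higher and 12.6% lower in IS), 36.3% of 14696 in Spalax fibrosarcoma (17.4% higher, 19.0% lower) and 45.1% of 15220 in mouse (22.8% higher, 22.3% lower). Of the genes described here 3 of 7 tested were called in granuloma, 2 of 6 in Spalax fibrosarcoma and 4 of 9 in mouse. With so few genes tested, the counts are no result about the group. UIS and IS values did not overlap for 69.8% of all genes in granuloma, 74.3% in Spalax fibrosarcoma and 60.2% in mouse. Leaving out 1 library of 4 could end every call: limma then called 0 genes in granuloma whichever was left out, and 0 in Spalax fibrosarcoma without UIS 2230 or UIS 2240. Scaled by total reads instead, the median change of all genes moved up by 0.73 in granuloma, 0.80 in Spalax fibrosarcoma and 1.06 in mouse. The calls over all genes were then 3370 higher and 1126 lower, 5169 and 1661, and 7555 and 1675.

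Between muscle groups almost nothing was called over all genes: 0.0% of 13909 from Spalax control to UIS, 0.0% of 14020 from control to tolerant, 0.00713% of 14029 from tolerant to UIS, and 0.0% of 14792 from mouse control to UIS. None of the genes tested here was called by limma in these comparisons. An unadjusted p under 0.05 was found for 3 of 7 tested from control to UIS (Ngb, Alas1 and Tfrc), where 16.6% of all genes had one, for 0 of 7 from control to tolerant (5.23% of all genes), for 0 of 7 from tolerant to UIS (5.12%) and for 2 of 9 in mouse (Cygb and Alas1, 11.0%). With edgeR or DESeq2 on recovered reads 0 of those tested were called in any of these comparisons, while DESeq2 called 516, 60, 38 and 342 of all genes. Groups whose values did not overlap made up 12.7%, 3.86%, 4.11% and 21.2% of all genes in these comparisons. The counts of genes tested in Spalax leave out Alas2 and Cp. In the comparisons with tolerant muscle these were made descriptions only after the fits had been seen. Counted as planned, Cp from control to tolerant and Alas2 from tolerant to UIS would have had an unadjusted p under 0.05 by limma, and some other settings called the latter.

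**Figure D1:**
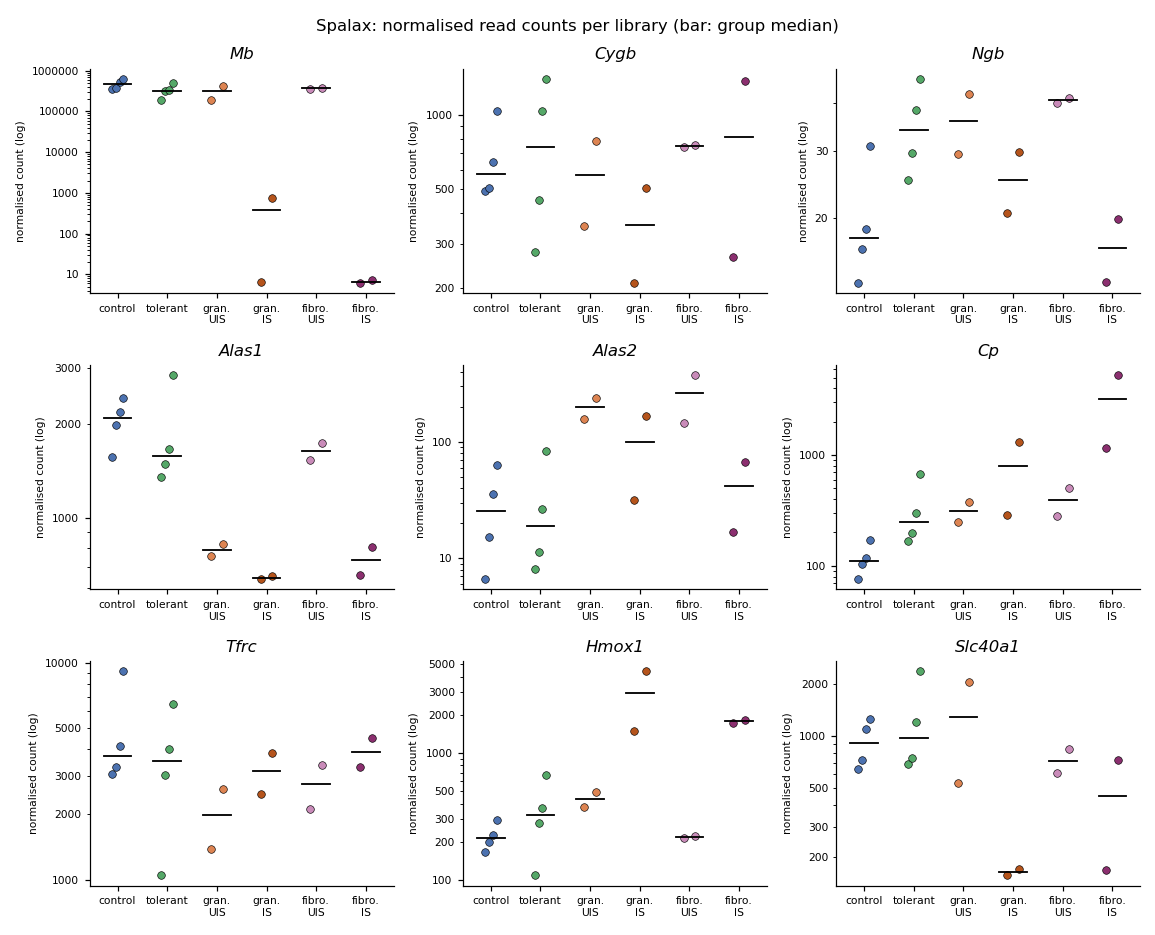
Normalised counts (log axis) of 9 genes in the 16 Spalax libraries by group, where a point is a library and a bar the group median. Mb ran from 192770 to 636399 in muscle and from 6.15 to 739 in tumors, and Hmox1 was higher in all 4 tumor libraries (1497 to 4402) than in any muscle library (108 to 670).

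Myoglobin was among the most abundant transcripts of Spalax muscle and nearly vanished from the tumors. In control muscle Mb stood at 542556 in 1042, 356607 in 1075, 636399 in 2095 and 383818 in 6038. In tolerant muscle it was 501434 in 2218, 192925 in 2251, 334780 in 2261 and 317562 in 2375, and in UIS 429151 in 600, 192770 in 976, 355587 in 2230 and 380678 in 2240. The muscle groups overlapped, and the lowest libraries, tolerant 2251 and UIS 976, were also the lowest of their groups in muscle fiber genes. The log2 change was −0.52 (SE 0.48, adjusted p = 0.594) from control to UIS and −0.27 without UIS 976, and −0.55 (SE 0.82) from control to tolerant.

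In the granulomas Mb was 739 in IS 600, from 1018 reads, and 6.65 in IS 976, from 11 reads. The log2 change from UIS was −11.90 (SE 2.07, adjusted p = 0.0184). It was −15.20 without IS 600 and −8.60 without IS 976, and the call was lost when any 1 of the 4 libraries was left out (adjusted p 0.124 to 0.167) and with edgeR (0.0612). Muscle fiber genes were also higher in IS 600 (7394) than in IS 976 (498). In fibrosarcoma IS Mb was 7.20 in 2230 and 6.15 in 2240, from 12 and 10 reads, and the described log2 change from UIS was −15.55 (SE 0.22).

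In mouse muscle Mb was 45731, 129919 and 54364 in the controls M1, M2 and M5, and 122701, 109972 and 13344 in UIS 1019, 1023 and 512. The low UIS library was 512, which had the lowest slow fiber sum of the mouse UIS libraries (5320) but the highest muscle fiber sum (2896100). In Spalax UIS the slow fiber sum was highest in 976 (280050), the lowest in Mb, and lowest in 600 (179210), the highest in Mb. Control 2095 (370040) and tolerant 2218 (549200) were the highest of their groups in both. Tolerant 2251 (134040) was the lowest of its group in both, whereas control 1042 had the lowest control sum (166530) but not the lowest Mb. The relation of Mb to slow fiber genes was not tested. Mouse IS libraries held 2.07 in 1019, from 4 reads, 468 in 1023 and 1221 in 512, in the same order as their muscle fiber sums. Mb fell in mouse tumors (log2 change −8.87, SE 2.25, adjusted p = 0.0200), and the call was lost without UIS 1019 (0.0532) or UIS 1023 (0.0628). The difference between the Spalax fibrosarcoma and the mouse change was −6.68 (SE 3.06), given with no test because it uses the fibrosarcoma libraries on which Mb was chosen.

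**Figure D2:**
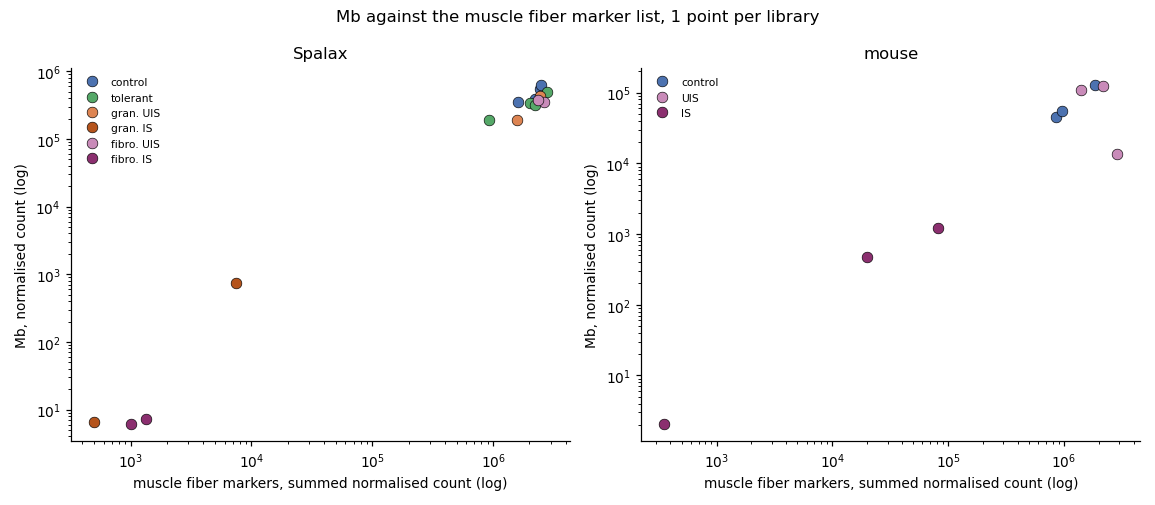
Mb against the summed muscle fiber markers, both in normalised counts on log axes, for each library of Spalax and mouse. Muscle libraries lie at the upper right, and tumor libraries with more muscle fiber signal (granuloma IS 600, mouse IS 1023 and 512) hold more Mb than the other tumors.

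Cytoglobin (Cygb), a globin of fibroblasts and related cells, and neuroglobin (Ngb), best known from neurons, were not called in any comparison with all libraries. Cygb was 642, 1035, 506 and 491 in the Spalax controls (1042, 1075, 2095 and 6038) and 451, 1393, 1036 and 279 in tolerant 2218, 2251, 2261 and 2375. The highest value, in tolerant 2251, was in the library with the highest fibroblast sum of the muscle samples, and the lowest, in 2375, in that with the lowest. In UIS it was 781 (600), 357 (976), 755 (2230) and 741 (2240), and the log2 change from control was −0.02 (SE 0.32, adjusted p = 0.981), or 0.25 without UIS 976.

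In tumors Cygb was 506 and 210 in granuloma IS 600 and 976, and 1359 and 266 in fibrosarcoma IS 2230 and 2240. The fibrosarcomas lay on both sides of their UIS values: the log2 change was −0.31 (SE 0.81), but −1.49 (adjusted p = 0.0174) without IS 2230 and 0.86 (0.0235) without IS 2240. Fibroblast sums were 432160 in IS 2230 and 115070 in IS 2240. They were higher in granuloma IS 600 and 976 (1891400 and 898830), where Cygb was lower than in IS 2230. In mouse they were 143160 to 180260 in IS against 5117 to 31022 in UIS, though mean Cygb was lower in IS. The relation of Cygb to fibroblast genes was not tested. In mouse Cygb was 782, 734 and 1186 in controls, 429, 524 and 193 in UIS and 257, 196 and 157 in IS. Mouse control and UIS did not overlap, as for 21.2% of all genes (log2 change −1.32, SE 0.42, adjusted p = 0.442), and UIS to IS was −0.82 (SE 0.45, 0.180), or −1.25 (0.0251) without UIS 512. Scaled by total reads the uncalled tumor changes of Cygb turned to 0.04 in granuloma, 0.49 in Spalax fibrosarcoma and 0.25 in mouse.

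Ngb was low: 13.5 to 30.8 in Spalax control, 25.2 to 46.3 in tolerant, 29.4 to 42.2 in UIS and 13.5 to 29.8 in IS, from 15 to 51 reads per library. The log2 change from control to UIS was 0.96 (SE 0.37, adjusted p = 0.255), or 1.08 without UIS 976, and the groups overlapped in range through control 6038. In fibrosarcoma it was −1.26 (SE 0.50, 0.114). Mouse Ngb rested on 1 to 8 reads per library, below the filter on low values, so no difference was detectable at this depth.

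Alas1 was lower in tumors than in muscle in Spalax fibrosarcoma and in mouse, and did not pass the test in granuloma. In Spalax muscle it was 1565, 2173, 1980 and 2405 in controls and 2856, 1351, 1662 and 1488 in tolerant animals. The UIS values of the granuloma animals, 826 (600) and 757 (976), were below every other muscle library, whereas those of the fibrosarcoma animals, 1533 (2230) and 1736 (2240), lay within the range of the others. From control to UIS the log2 change was −0.82 (SE 0.30, adjusted p = 0.244), or −0.63 without UIS 976.

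Alas1 in the tumors was 638 and 653 in granuloma IS 600 and 976 and 811 and 656 in fibrosarcoma IS 2230 and 2240. The 4 Spalax tumors thus lay within a narrow range, below all control, tolerant and fibrosarcoma UIS libraries and overlapping the granuloma UIS values. The log2 change was −0.29 (SE 0.33, adjusted p = 0.541, or 0.45 by total reads) in granuloma and −1.16 (SE 0.24, 0.0255) in fibrosarcoma. The fibrosarcoma call was lost without UIS 2230 (0.240) or UIS 2240 (0.241), and scaled by total reads the change was −0.35 (0.313), which ends it. The change in fibrosarcoma differed from that in granuloma by −0.87 (SE 0.37, adjusted p = 0.934), which was not called.

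Mouse Alas1 was 3124, 3641 and 3076 in controls, 2247, 2298 and 1481 in UIS and 480, 492 and 548 in IS. Each group lay wholly below the one before. Of all genes 21.2% did not overlap from control to UIS and 60.2% from UIS to IS. Alas1 fell from UIS to IS (log2 change −1.96, SE 0.25, adjusted p = 0.00272), and the call held when any 1 of the 6 libraries was left out (0.00232 to 0.0177). From control to UIS the log2 change was −0.73 (SE 0.26, 0.442), not called.

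Alas2 was low in untreated Spalax muscle and higher in UIS, which is part of how it was chosen. It was 6.63, 15.3, 63.6 and 35.8 in the controls, from 6 to 51 reads, and 158, 239, 375 and 147 in UIS 600, 976, 2230 and 2240. The described log2 change was 3.20 (SE 0.63), and 3.15 without UIS 976. In tolerant animals Alas2 was 26.4, 11.3, 83.2 and 8.04, within the control range apart from 2261, and the log2 change from control was −0.05 (SE 0.84). Every UIS library was above every tolerant library (log2 change 3.25, SE 0.68, or 3.20 without UIS 976). This comparison uses the UIS libraries that chose the gene, and index cannot be told apart from group in it.

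Blood in the tissue was read from hemoglobin transcripts. Spalax Hbb was 3047, 4268, 7881 and 7865 in controls, 6541, 1387, 10661 and 759 in tolerant animals, and 5992, 1088, 27617 and 6479 in UIS 600, 976, 2230 and 2240. Per 1000 Hbb counts, Alas2 was 2.17 to 8.07 in controls, 4.04 to 10.6 in tolerant libraries, 13.6 to 220 in UIS and 11.8 to 24.5 in IS, where the value of 220 was UIS 976. The 8 libraries of tumor-bearing animals were all above the 8 others, a split noticed after the values were seen and identical with that of the single and dual indexes. Alas2 was chosen on its control and UIS levels, so the split between those groups is no independent result. The libraries nearest to each other across the split, tolerant 2375 (10.6) and fibrosarcoma IS 2230 (11.8), rested on 6 and 28 Alas2 reads. Of the other red cell genes only Klf1 reached 10 counts in a library, with Slc4a1, Ahsp, Epb42 and Rhag near 0. In mouse, Alas2 per 1000 hemoglobin counts was 14.5 to 37.6 in all 9 libraries.

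**Figure D3:**
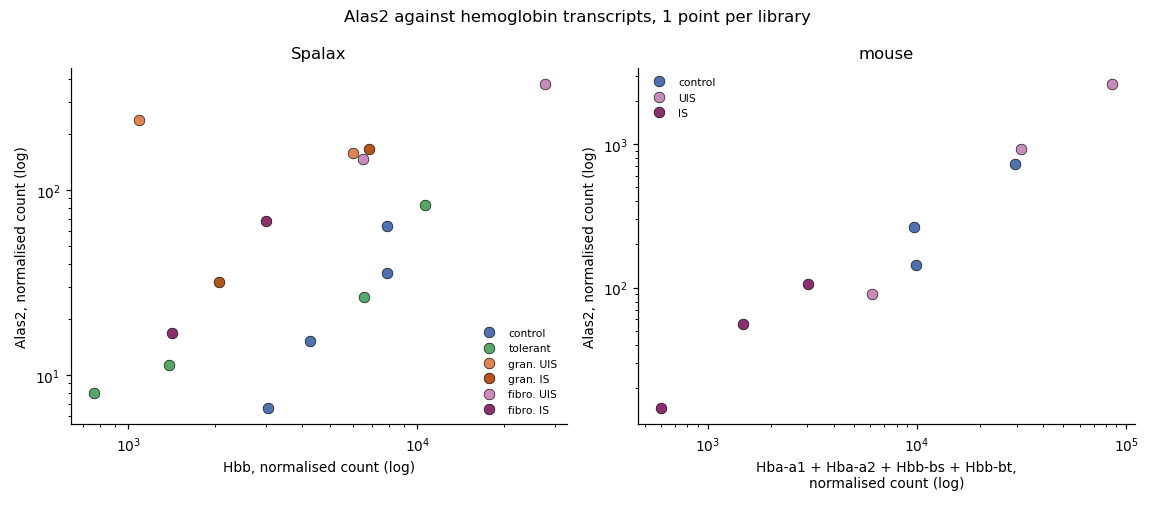
Alas2 against hemoglobin transcripts (Hbb in Spalax, the sum of Hba-a1, Hba-a2, Hbb-bs and Hbb-bt in mouse) in normalised counts on log axes, a point per library. In Spalax the libraries of tumor-bearing animals lie above the control and tolerant libraries at a given Hbb level, whereas the mouse libraries lie along 1 band. Alas2 was chosen on its Spalax control and UIS levels.

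Alas2 in Spalax tumors was 167 and 32.0 in granuloma IS 600 and 976 and 16.8 and 67.6 in fibrosarcoma IS 2230 and 2240. The described log2 change from UIS was −1.39 (SE 0.90) in granuloma, or −1.09 without UIS 976, and −2.75 (SE 0.88) in fibrosarcoma. In mouse it was 723, 143 and 266 in controls, 90.7, 918 and 2635 in UIS 1019, 1023 and 512, and 14.5, 107 and 55.8 in IS. The mouse UIS values ran in the order of the hemoglobin sums. The mouse log2 change from control to UIS was 1.00 (SE 1.19, adjusted p = 0.727) and from UIS to IS −3.73 (SE 1.32, 0.0574), and with the animal as a block the latter was called (0.0148).

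Hmox1 was the only gene of the group called as higher in all 3 tumor comparisons. The log2 changes of Tfrc and Cp were also positive in all 3, but Tfrc was not called and Cp was only described in Spalax. In Spalax muscle it was 200, 227, 296 and 165 in controls, 108, 670, 280 and 369 in tolerant animals, and 375, 495, 222 and 212 in UIS 600, 976, 2230 and 2240. The highest muscle value was that of tolerant 2251, the library with the highest macrophage sum of the muscle samples. From control to UIS the log2 change was 0.49 (SE 0.32, adjusted p = 0.451), or 0.26 without UIS 976, and from control to tolerant 0.44 (SE 0.48, 0.931).

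The granulomas held Hmox1 at 4402 (IS 600) and 1497 (IS 976) and the fibrosarcomas at 1710 (IS 2230) and 1835 (IS 2240). It rose by 2.57 on the log2 scale (SE 0.58, adjusted p = 0.0332) in granuloma and by 3.02 (SE 0.23, 0.00375) in fibrosarcoma. The granuloma call was lost when any 1 of the 4 libraries was left out (0.141 to 0.191), and the fibrosarcoma call without UIS 2230 (0.169) or UIS 2240 (0.152).

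Mouse Hmox1 was 293, 233 and 274 in controls, 167, 242 and 220 in UIS, and 559, 1755 and 857 in IS. All IS libraries were above all muscle libraries, and UIS and IS did not overlap for 60.2% of all genes. The rise was 2.18 (SE 0.45, adjusted p = 0.0103), and the call held when any 1 of the 6 libraries was left out (0.0130 to 0.0328). Summed macrophage genes were higher in tumors as well. They were 17056 and 50453 in granuloma IS 600 and 976 and 67798 and 15405 in fibrosarcoma IS 2230 and 2240, against 2086 to 7068 in Spalax UIS. In mouse IS 1019, 1023 and 512 they were 66476, 38524 and 12499, against 1031 to 10773 in UIS. Within each tumor group, however, the library with the highest macrophage sum had the lowest Hmox1. The part of macrophages in the result was not tested.

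**Figure D4:**
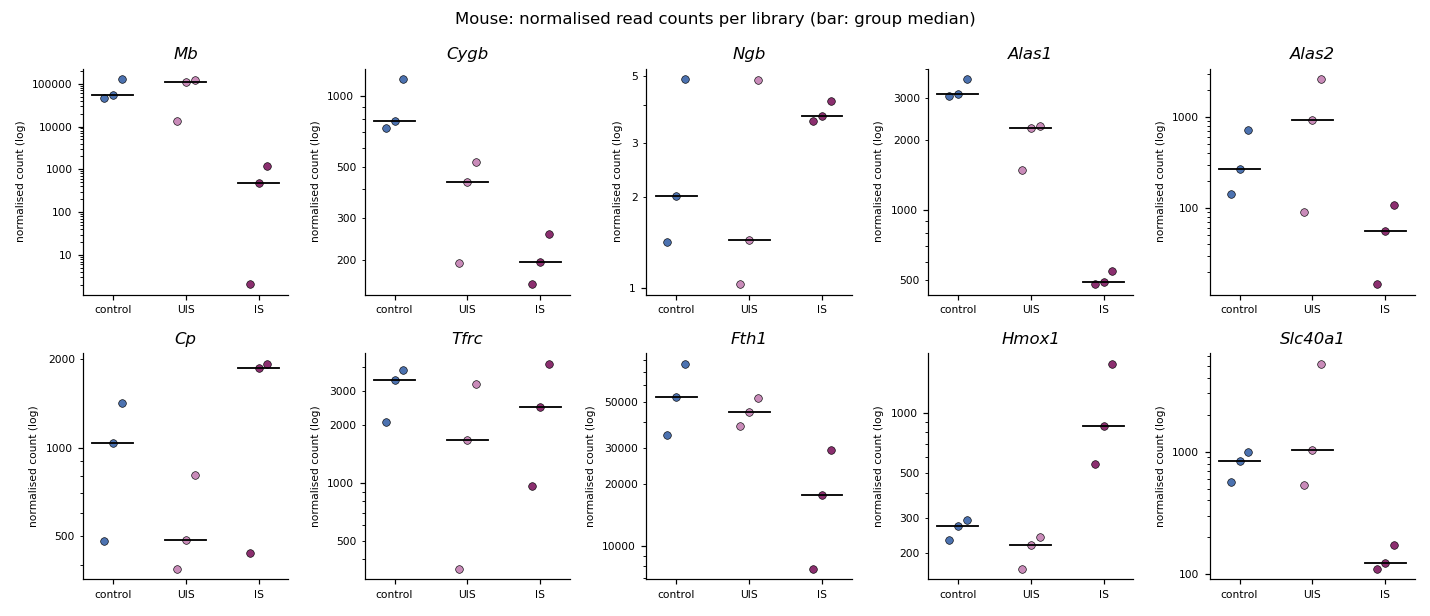
Normalised counts (log axis) of the 10 genes in the 9 mouse libraries by group, where a point is a library and a bar the group median. Alas1 lies at 480 to 548 in IS, below UIS (1481 to 2298) and controls (3076 to 3641), and Slc40a1 is highest in UIS 512 (5204).

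The transferrin receptor Tfrc, which carries 4 of the hairpins shown above, was not called in any comparison. It was 3308, 9153, 3075 and 4157 in Spalax controls, 6471, 3053, 4006 and 1044 in tolerant animals, and 2613, 1378, 2118 and 3396 in UIS 600, 976, 2230 and 2240. Control 1075 was high and tolerant 2375 and UIS 976 low, and the groups overlapped (control to UIS −0.98, SE 0.38, adjusted p = 0.262, −0.74 without UIS 976). In Spalax tumors Tfrc was 3849 and 2495 in granuloma and 4497 and 3302 in fibrosarcoma IS, with log2 changes of 0.71 (SE 0.46, 0.297), or 0.25 without UIS 976, and 0.52 (SE 0.34, 0.288). Scaled by total reads the fibrosarcoma change was 1.33 (0.0450), which is past the threshold. Mouse values were 2066, 3417 and 3869 in controls, 3253, 1673 and 356 in UIS 1019, 1023 and 512, and 961, 2469 and 4155 in IS, and the low UIS library was again 512. The mouse log2 change from UIS to IS was 0.78 (SE 0.90, adjusted p = 0.507), and −0.12 to 1.47 when 1 library was left out.

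Fth1, the ferritin heavy chain that oxidises iron for storage, was read in mouse only. It was 52554, 76334 and 34500 in controls, 44494, 52195 and 38319 in UIS and 17681, 29116 and 7750 in IS. The IS values lay below all muscle values, where UIS and IS did not overlap for 60.2% of all genes. The log2 change of −1.49 (SE 0.54, adjusted p = 0.0628) was not called, though DESeq2 called it (0.0233). Scaled by total reads it was −0.42 (0.528). Fth1 has processed pseudogenes that share its sequence, so the counting of its reads is uncertain. The ferritin light chain was also read: Ftl1 rose in mouse tumors by 0.87 (0.0482), and Ftl rose in granuloma by 2.10 (0.0280) and in Spalax fibrosarcoma by 3.12 (0.0257), from 5865 and 7091 in UIS to 30768 and 101768 in IS.

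The exporter ferroportin, Slc40a1, was lower in granuloma and in mouse tumors. In Spalax muscle it was 1259, 1097, 641 and 728 in controls, 692, 748, 1198 and 2356 in tolerant animals, and 2034, 538, 607 and 835 in UIS 600, 976, 2230 and 2240. The groups overlapped and the log2 change from control to UIS was −0.05 (SE 0.41, adjusted p = 0.958), or 0.17 without UIS 976. In IS it was 157 and 170 in granuloma 600 and 976 and 730 and 170 in fibrosarcoma 2230 and 2240, so that 3 of the 4 tumors were below all muscle libraries and IS 2230 was not.

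Slc40a1 fell in granuloma (log2 change −2.67, SE 0.69, adjusted p = 0.0456). The call was lost when any 1 of the 4 libraries was left out (0.0653 to 0.273, with changes from −3.63 without UIS 976 to −1.71 without UIS 600), scaled by total reads (−1.93, 0.0882), with a pseudocount of 0.1 (0.0503), with no filter on low values (0.0638) and with edgeR (0.0504). In Spalax fibrosarcoma the log2 change was −1.01 (SE 0.75, 0.343), or −2.06 (0.0256) without IS 2230. Mouse Slc40a1 was 985, 570 and 834 in controls, 539, 1025 and 5204 in UIS 1019, 1023 and 512, and 110, 123 and 172 in IS. It fell in IS (−3.41, SE 0.80, adjusted p = 0.0157), a call lost without IS 1023 (0.0530). Without UIS 512 the fall was −2.48 (0.00820) and without UIS 1019 −4.11 (0.00971).

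Ceruloplasmin, Cp, was chosen with Alas2 for its higher level in UIS. It was 117, 170, 105 and 75.6 in controls and 379, 247, 281 and 506 in UIS 600, 976, 2230 and 2240, without overlap (described log2 change 1.59, SE 0.32, 1.74 without UIS 976). Non-overlap held for 2 of the 9 genes, Alas2 and Cp, and for 12.7% of all genes in that comparison. Tolerant animals held 200, 677, 300 and 169, mostly above the controls but overlapping them through 2375. The described log2 change from control to tolerant was 1.35 (SE 0.44), and 0.94 without tolerant 2251, in which fibroblast and macrophage genes were highest.

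In IS Cp was 287 and 1315 in granuloma 600 and 976, and 5289 and 1171 in fibrosarcoma 2230 and 2240. Both fibrosarcomas and granuloma 976 were above all muscle libraries. The described log2 change was 1.01 (SE 0.78) in granuloma, −0.09 without IS 976 and 0.70 without UIS 976. In fibrosarcoma it was 2.72 (SE 0.81), 1.63 without IS 2230 and 3.81 without IS 2240. From granuloma IS to fibrosarcoma IS it was 2.02 (SE 1.04, adjusted p = 1.0). In mouse, Cp was 1416, 481 and 1037 in controls, 485, 806 and 386 in UIS, and 1928, 1858 and 439 in IS, so the direction from control to UIS (−0.74, SE 0.46, adjusted p = 0.529) was opposite to that described in Spalax, and this difference was not tested. The mouse change from UIS to IS was 1.13 (SE 0.63, 0.185), and 2.19 (0.0298) scaled by total reads.

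**Figure D5:**
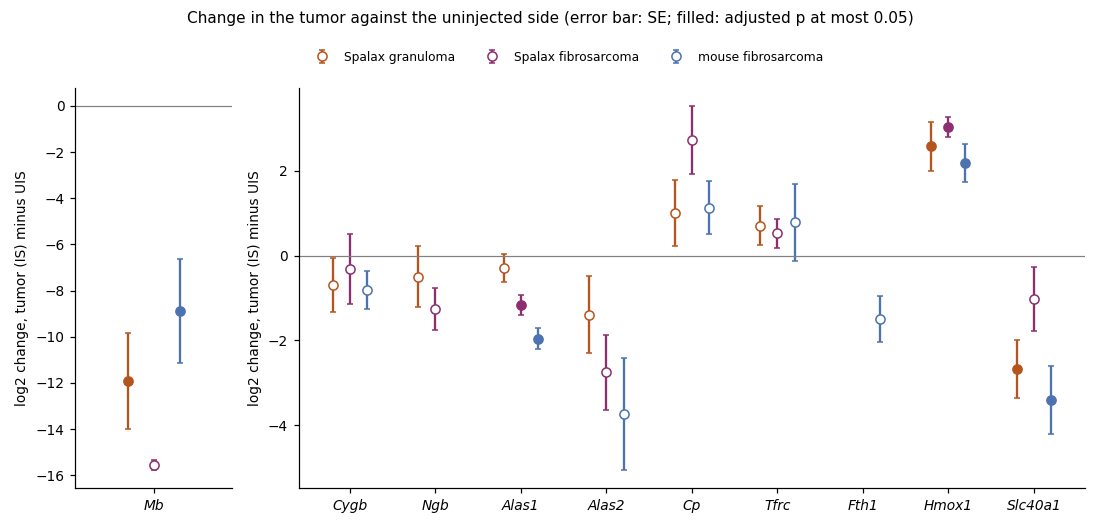
Log2 change from UIS to IS with its SE in Spalax granuloma, Spalax fibrosarcoma and mouse, with Mb on its own axis at the left. Filled points passed an adjusted p of 0.05 and open points did not, except that Mb in Spalax fibrosarcoma and Alas2 and Cp in both Spalax comparisons are open because they were only described. Hmox1 is filled at 2.57, 3.02 and 2.18.

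The tumor types and species were compared directly. From granuloma IS to fibrosarcoma IS limma called 0 of 8 genes, as for 0.0% of 14562 genes, and 0 had an unadjusted p under 0.05, with 0 called by edgeR or DESeq2. The interaction of side and tumor type gave 0 of 6 (0.0% of 14258 genes), 0 at an unadjusted p under 0.05, and 0 called by edgeR or DESeq2. The interaction of side and species called 3.95% of 11085 shared genes and 0 of the 5 tested here, with 0 at an unadjusted p under 0.05 and 0 called by edgeR or DESeq2. For Alas1 this difference was 0.80 (SE 0.36, adjusted p = 0.240) and for Slc40a1 2.40 (SE 1.28, 0.316).

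The other genes of the pathways were taken from lists. Beside the 10 genes, 6 of 49 listed genes rose and 7 fell in granuloma, 11 and 9 of 51 in Spalax fibrosarcoma, and 6 and 19 of 51 in mouse tumors. No listed gene was called in the Spalax or mouse muscle comparisons (47, 47, 47 and 48 tested). Over all genes 11.7% rose and 12.6% fell in granuloma, 17.4% and 19.0% in Spalax fibrosarcoma, and 22.8% and 22.3% in mouse. The counts below include the 10 genes, and the medians are of the log2 change, against −0.01, 0.03 and 0.11 for all genes in granuloma, Spalax fibrosarcoma and mouse. With so few genes per list, the counts are no result about a pathway.

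In heme synthesis none of 11 tested genes rose, and 1, 3 and 7 fell in granuloma, Spalax fibrosarcoma and mouse (medians −0.36, −0.92 and −1.34). Abcb10, a mitochondrial transporter needed for heme synthesis, fell in granuloma (log2 change −2.82, adjusted p = 0.0172) and in Spalax fibrosarcoma (−2.49, 0.00483). Ferrochelatase (Fech), which inserts iron into heme, fell in Spalax fibrosarcoma from 1947 and 2087 in UIS to 629 and 800 in IS (adjusted p = 0.0140), a call lost with total reads (0.0768), and in mouse (−2.70, 0.00147). Urod, an earlier enzyme of the path, fell in mouse (−1.73, 0.00247). By total reads, 0 rose and 1 fell in granuloma, 2 and 1 in Spalax fibrosarcoma, and 1 and 3 in mouse.

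In heme breakdown and transport 3 rose and 2 fell of 13 in granuloma, 6 and 3 of 14 in Spalax fibrosarcoma, and 2 and 2 of 12 in mouse (medians 0.11, 0.99 and −0.20). Lrp1, a receptor that takes up heme bound to hemopexin among many other ligands, rose by 3.56 (0.00682) in granuloma and by 2.59 (0.0111) in mouse. Abcb6, a porphyrin transporter, fell in granuloma (−3.61, 0.0148) and in Spalax fibrosarcoma (−3.52, 0.00464). Haptoglobin (Hp), which binds free hemoglobin, rose in Spalax fibrosarcoma by 3.49 (0.00315), from 1614 and 1615 in UIS to 16262 and 20235 in IS. In mouse it fell (−4.18, 0.0245, or 0.0607 with total reads). By total reads, 4 rose and 1 fell in granuloma, 7 and 1 in Spalax fibrosarcoma, and 2 and 0 in mouse.

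In iron uptake 3 of 10 rose in granuloma, 5 of 10 in Spalax fibrosarcoma and 3 of 9 in mouse, and none fell (medians 2.02, 1.63 and 0.46). Those with the largest changes were genes of the Steap family, of which Steap2 and Steap4 reduce iron and copper at membranes. Steap2 rose by 5.73 (0.0158), 6.42 (0.00787) and 5.33 (0.00886), and in Spalax its UIS values were 0 to 2.42 counts, so its size there depends on the pseudocount. Steap1 rose by 5.36 (0.0147) in granuloma and 4.95 (0.0173) in mouse, and Steap4 by 6.55 (0.00849) in Spalax fibrosarcoma, against −1.61 (0.170) in mouse. With total reads as the scale 4, 7 and 4 rose and none fell.

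In storage 1 rose and 1 fell of 4 in both Spalax tumors and 1 rose of 5 in mouse (medians −0.15, −0.19 and 0.24). The gene that fell was Ncoa4, which delivers ferritin for degradation, with log2 changes of −1.63 (0.0246) and −0.97 (0.0313), calls lost with total reads (0.0880 and 0.541), under which 1, 2 and 4 rose and none fell. In export and its control none rose, and 2 of 6, 1 of 7 and 3 of 6 fell (medians −1.72, 0.65 and −1.78). Hemojuvelin, listed as Hfe2, a coreceptor made by muscle, fell in all 3 tumor comparisons (−8.25, 0.0181 in granuloma, −10.32, 0.000956 in Spalax fibrosarcoma and −8.17, 0.0207 in mouse). Its IS values went down to 0.604 counts in granuloma, 0.600 in Spalax fibrosarcoma and 0.517 in mouse, so these sizes depend on the pseudocount. Bmp6 fell in mouse (−2.62, 0.0150, or 0.0781 with total reads). With total reads as the scale 0, 1 and 1 rose and 1, 1 and 2 fell.

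In iron sensing and mitochondrial iron none of 10 rose, and 2, 2 and 5 fell (medians −0.56, −0.73 and −1.46). The iron-sulfur cluster scaffold Iscu fell in all 3 (−2.43, 0.0155, then −2.77, 0.00637, and −2.72, 0.000858). Nfs1, the sulfur donor for these clusters, fell in mouse (−2.76, 0.000926). Slc25a28 in Spalax fibrosarcoma (−1.21, 0.0377) was lost with total reads (0.321). This list turned with the scaling: by total reads 1, 1 and 4 rose and 1, 1 and 4 fell. Among globins Mb was the 1 called in Spalax granuloma, and in mouse 5 of 7 fell, Mb and 4 hemoglobin genes, among them Hba-a2 (−4.48, 0.0125) and Hba-a1 (−4.41, 0.0137), near-identical copies whose reads may be shared. Adgb, a globin best known from testis, rose in mouse (3.12, 0.0171), a gene named after its value was seen.

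Of 45 listed genes other than the 10, 4 differed between species in their change from UIS to IS, where 3.95% of 11085 shared genes did. The 4 are named because they are few, after their values were seen. With Spalax minus mouse, Hp differed by 7.67 (adjusted p = 0.0341), Steap4 by 8.17 (0.0238), Cpox, an enzyme of heme synthesis, by 2.08 (0.0239) and Nfs1 by 2.02 (0.0174). With the animal as a block Hp kept its call (0.0368) and Steap4 (0.0576), Nfs1 (0.0679) and Cpox (0.0881) did not. With total reads Hp lost its call (0.0506). Of the 10 fits that each left out 1 library, 4 called Hp, 6 Steap4, 6 Cpox and 7 Nfs1.

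In untreated muscle the species differed in level for some of the genes. The tables were normalised separately and the gene models differ, so levels are given as RPM, the reads of a gene scaled to a fixed total of reads per library, with no test. Mb was 20150 RPM ± 3500 (SD, n = 4) in Spalax, where it ranked between 2 and 5 among all genes, and 3155 ± 1540 (SD, n = 3) in mouse. Ngb was also higher in every Spalax control (mean 0.846 against 0.121). Alas1 (87.7 against 139.8), Alas2 (1.23 ± 0.903 against 16.8 ± 14.4) and Cp (5.13 ± 2.35 against 43.2 ± 23.4) were lower in every Spalax control than in any mouse control. Cygb, Tfrc, Hmox1 and Slc40a1 overlapped. Of 12060 shared genes 27.5% were higher and 29.9% lower in every Spalax control in this sense, against 2 and 3 of the 9 described here, and TMM scaling over shared genes left the order of these 9 as it was.

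Levels between genes were set side by side in mouse controls, as RPKM, which scales for exon length as well as for total reads (mean ± SD, n = 3). Mb stood highest at 2114 ± 1030, then Fth1 at 658 ± 194, Alas1 at 22.7 ± 0.382, Tfrc at 21.5 ± 6.55, Cygb at 16.8 ± 5.68, Alas2 at 6.99 ± 5.99, Hmox1 at 6.58 ± 1.37, Cp at 4.52 ± 2.45, Slc40a1 at 3.86 ± 1.33 and Ngb at 0.0703 ± 0.0513. Alas1, Tfrc and Cygb did not differ beyond their spread, nor did adjacent genes in the order from Alas2 to Slc40a1. Hmox1 did lie wholly above Slc40a1 (5.04 to 7.64 against 2.40 to 4.99). In mouse IS Fth1 led at 387 ± 216 (SD, n = 3). Hmox1 at 44.0 ± 24.1, Tfrc at 29.9 ± 18.6 and Mb at 27.4 ± 30.2 did not differ beyond their spread, and Mb ran from 0.109 to 59.9. Exons on the opposite strand overlap 31.9% of Mb and 15.48% of Alas2 in the mouse annotation, and the strand setting of the counting is not given in the sources used here.

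The genes most like the members were sought by Pearson correlation over the 12 Spalax muscle libraries, among 12237 genes, as a description. These libraries share differences in tissue makeup. Mb ran most closely with Fitm1 (r = 0.968), Hspb2 (0.958) and Ubl4a (0.956), and Alas1 with Abhd14b (0.944), Kiaa1467 (0.938) and Abhd14a (0.92). Cygb was nearest to Apba1 (0.942), Klhl5 (0.935) and C3ar1 (0.935), and Cp to Zc3h7a (0.945), Il18bp (0.917) and Osmr (0.917). Alas2 had lower maxima, with Ss18l1 at 0.852, Rpe at 0.831 and Gatad1 at 0.827. The maxima were 0.875 for Hmox1 (E2f2), 0.863 for Ngb (Papola) and 0.847 for Slc40a1 (C2cd3).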

How the data were processed

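The deposited tables, 1 per species, hold a signal per gene that the authors made by counting reads with htseq-count after trimming (Trimmomatic 0.33) and TopHat alignment and dividing each library by a size factor. The submitters' processing notes name TopHat 1.4.1, HTSeq, DESeq and GRCm38, whereas the study's methods name TopHat2, and the counting parameters are not given in the sources used here. The deposited values are whole multiples of 1 read for 100% of values (tolerance 0.05), so reads were recovered: 17025447 to 23386729 per Spalax library and 22143060 to 31179183 per mouse library. In 2387 Spalax names a comma stood for t and was restored. The files hold 0 columns that belong to no sample.

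Genes that reached a value of 10 in no fewer libraries than the smaller of the compared groups had were tested on log2(value + 1) with limma 3.58.1 (trend, R 4.3.3) and Benjamini-Hochberg adjustment, with only the compared groups in the fit. edgeR 4.0.16 (quasi-likelihood) and DESeq2 1.42.0 on recovered reads, a pseudocount of 0.1, no filter, total-read scaling, 1 model per species, the animal as a block and leaving out each library were alternatives. The scripts were tested on simulated data. The members and lists were chosen with earlier results of these data known. The planned design kept Alas2 and Cp from control to UIS and Mb in Spalax fibrosarcoma as descriptions and tested the other pairs. After the fits had been seen, the other comparisons that reuse the libraries behind the choice (Alas2 and Cp wherever Spalax control or UIS libraries enter, and both interactions for Mb, Alas2 and Cp) were also made descriptions, and were left out of the counts of genes tested and called. With all libraries the limma test as planned called none of these added pairs, whereas some other settings called Alas2 from tolerant to UIS, Alas2 and Cp in Spalax fibrosarcoma and Mb for the species interaction. All 10 members are named, plus the 2 called genes with the largest change per list and tumor comparison and the 3 nearest genes by correlation, of which the text gives some. A few genes that these rules name are not reported here. IS and UIS libraries with the same number come from the same animal, by the labels' specimen number. The correlation of their deviations from the group means was 0.009 in granuloma, −0.002 in Spalax fibrosarcoma, and 0.125, 0.047 and 0.178 in the mice. No library duplicated another of its group (smallest chi-square per gene 48.1). Reads carry no molecular identifiers.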

Additional observations from a re-analysis of the deposited data

Results flagged for a closer look

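Of 27 sets of 4 values checked (9 genes in the Spalax control, tolerant and UIS libraries), 1 had a library far from the other 3: Cygb in UIS 976, at 357 against 741 to 781 (gap to the nearest value over the whole range 0.904, above Dixon's limit). Chance flags about 1 in 20 such sets. UIS 976 is the library whose labels carry another animal number, and it also had the lowest muscle fiber, fibroblast and macrophage sums of the UIS libraries.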

How the results depend on the processing

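Of the members tested in granuloma edgeR on recovered reads called 1 (Hmox1) against 3 with limma. Leaving out each library gave 0 to 0 members in granuloma and 0 to 4 in Spalax fibrosarcoma, against 3 and 2 with all libraries. In groups of 2 the library left alone is assumed to vary like the others. The direction of Cygb in Spalax fibrosarcoma reversed, to 0.86, without IS 2240, and was −1.49 without IS 2230. The 2 tumors lie on opposite sides of UIS. With the animal as a replicate block 5 members were called in mouse (Alas2 added) against 4, the block changed no other call of a member, and over all genes 38 were called for the species interaction against 438. DESeq2 also called more over all genes where limma called few: 516 against 0 from control to UIS, 60 against 0 from control to tolerant, 38 against 1 from tolerant to UIS, 342 against 0 from mouse control to UIS, 153 against 0 between tumor types, 77 against 0 for their interaction, 1711 against 438 for the species interaction and 5383 against 3581 in granuloma. Of 1144 values of a member under another setting 1023 kept direction and side of the threshold or, where only described, stayed within 1 SE, 82 moved, 25 lost and 13 gained a call. Counting error is large where few reads were counted, as for Ngb, for Alas2 in Spalax control and tolerant libraries and for Mb in granuloma IS 976, both Spalax fibrosarcomas and mouse IS 1019.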
